A study of Drosophila melanogaster with 12 samples.

Results

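The data describe what changed in whole male flies between 2 days and 4 weeks of feeding on a high-sugar diet. The arrays were chosen by their titles: 6 of the 12 Affymetrix expression arrays of the series, 3 from flies fed high sugar for 4 weeks and 3 from flies fed it for 2 days. The flies were adult Drosophila melanogaster males of Canton-S, a wild-type laboratory strain, kept in vials without females. Feeding began at an age of 3 to 5 days, so the flies of the 4-week group were 31 to 33 days old at sacrifice, and those of the 2-day group 5 to 7 days old. The other 6 arrays came from males of the same strain, sex and ages on a control diet, 3 after 4 weeks and 3 after 2 days. Their values are given beside the high-sugar values. They also entered the floor, the filter, the choice of probe set and the estimate of spread behind every high-sugar call. The labels call the 3 arrays of each group biological replicates. How many flies made up a replicate, and the sugar content of each diet, are not given in the sources used here.

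Long feeding on sugar is a widely used fly model of diet-induced insulin resistance, in which larvae or adults store more fat and carry more sugar in the blood. Adult flies age quickly, and over the same weeks in which these flies ate sugar, ageing itself is known to raise immune gene expression and to lower transcripts of mitochondria, muscle and male reproductive glands. Time on the diet and age are the same variable here. The sources name no day of extraction or hybridisation, so effects of that day and of time on the diet cannot be told apart. RNA came from the whole animal, so fewer cells of a type and less RNA per cell cannot be told apart either.

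The deposited values are intensities on a linear scale, normalized between arrays by the authors, with array medians of 87 to 93.4. After low and unnamed probe sets were left out, 10418 genes were tested. Each log2 fold change below is the high-sugar 4-week group minus the high-sugar 2-day group in limma, with a call at an adjusted p under 0.05, and the median standard error was 0.131. Per-array values are given for 4 weeks and then for 2 days, each in the order of arrays 1 to 3. Male and female marker genes were read in every array as a check of the labelled sex. The summed intensity of 34 seminal protein genes was 132900 to 154100 at 4 weeks and 211800 to 234400 at 2 days. That of the 5 eggshell and egg membrane genes above the filter, of 16 on the array, was only 164 to 186 at 4 weeks and 169 to 225 at 2 days. The yolk protein gene Yp1 measured 51.2, 58.5 and 43.9 at 4 weeks and 7.44, 5.92 and 13.9 at 2 days, low values beside the floor of 11.78 that was set for low intensities (log2 fold change 2.03, or 1.33 with a floor at the 30th percentile).

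Between 2 days and 4 weeks on high sugar, 4438 of 10418 genes (42.6%) passed the test. Transcripts of 2068 genes rose (19.9%) and those of 2370 fell (22.7%), while the median log2 fold change over all genes was 0.03. With quantile normalization more genes rose than fell (2452 and 2289). The largest changes were mostly falls: 292 called genes fell and 109 rose by at least 2-fold. At 1.5-fold or more these numbers were 1343 lower and 591 higher. For 4277 of the called genes, all 3 arrays of the 4-week group lay on the same side of all 3 arrays of the 2-day group. Such separation was found in 55.1% of all genes tested, 28.6% with the 4-week arrays higher and 26.5% with them lower, so it alone says little about a gene. In a principal component analysis of the 6 arrays the component with the largest share, 69.6% of the variance, placed the 3 arrays of 4 weeks apart from the 3 arrays of 2 days.

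**Figure D1:**
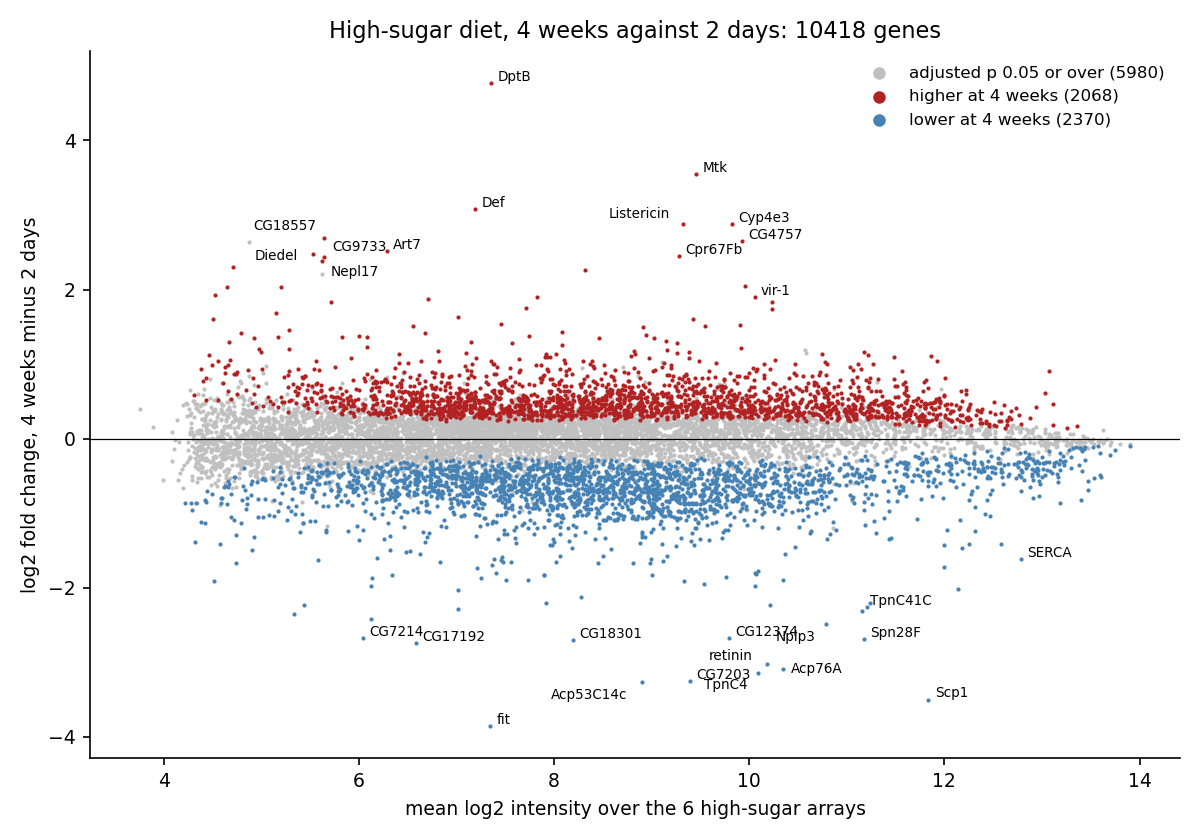
Each point is a gene, with its mean log2 intensity over the 6 high-sugar arrays on the horizontal axis and its log2 fold change, 4 weeks minus 2 days, on the vertical axis. Red points (2068) were higher and blue points (2370) lower at 4 weeks at a limma adjusted p under 0.05, and beyond a change of 2-fold there are 292 blue and 109 red points. The named genes include those with the largest changes, such as DptB at 4.77 and fit at -3.85.

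The 4 largest rises among called genes were those of immune effectors. DptB, which encodes the antibacterial peptide diptericin B, measured 860.4, 351 and 2075 in the 4-week flies, against 43.1, 23.2 and 30.7 in the 2-day flies. Every 4-week array was higher than every 2-day array, but the 4-week arrays also differed widely among themselves. The log2 fold change of DptB (gene 37184) was 4.77 with a standard error of 1.36 and an adjusted p of 0.0136. Mtk (gene 36708), which encodes the antifungal peptide metchnikowin, measured 2092, 1389 and 4748 at 4 weeks and 324, 215 and 125 at 2 days (3.55, standard error 1.24). Defensin, Def (gene 36047), measured 294, 669 and 390.0 against 123, 27.5 and 37.8, a change of 3.07 (standard error 0.85). Listericin (gene 36183), which encodes a small antibacterial protein, measured 1639, 1620.3 and 1989 against 471, 118 and 238, a change of 2.88 with an adjusted p of 0.000896, and this call held in all alternatives run. Its 3 values at 4 weeks lay closer together than those of DptB and Mtk. Diedel (2.48), an immune-induced secreted protein gene, rose too, with 112, 56.9 and 205 at 4 weeks against 20.3, 13.6 and 27.3 at 2 days. Drs (1.10) encodes drosomycin, an antifungal peptide, and stood at 4944, 5677 and 5777 against 2695, 2431 and 2488. A pair of drosomycin-like genes went the other way: Drsl4 measured 3684, 1782 and 838 against 4509.8, 4319 and 4515 (-1.33), and Drsl5 changed by -0.58. Leaving out a single array ended the call (adjusted p in parentheses) of DptB without high-sugar 4-week array 3 (0.0548), Mtk without high-sugar 4-week arrays 1, 2 or 3 or high-sugar 2-day arrays 2 or 3 (0.0503 to 0.11), Def without high-sugar 2-day array 2 (0.0525), Drs without high-sugar 4-week arrays 1, 2 or 3 or high-sugar 2-day arrays 1, 2 or 3 or control 4-week array 3 (0.0502 to 0.101), Drsl4 without high-sugar 4-week array 3 (0.0658) and Drsl5 without high-sugar 4-week arrays 2 or 3 or high-sugar 2-day array 2 (0.0609 to 0.095). Under other processing choices, calls lost at the adjusted p given were DptB (0.0527), Mtk (0.099), Drs (0.107) and Drsl4 (0.0542) with robust estimation, Mtk (0.0885), Drs (0.101), Drsl4 (0.0528) and Drsl5 (0.0505) without a filter and Drs (0.0577) without a trend.

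In all, 4 antimicrobial peptide genes rose and 2 fell of 9 tested (13 on the array), against 19.9% and 22.7% of all genes. The median log2 fold change of the 9 was 1.10, which depended on the filter (0.44 to 2.21 over the alternatives). The other 3 were AttD, CecB and Drsl3. The attacin gene AttD measured 91.7, 140.2 and 92.6 at 4 weeks and 23.8, 19.3 and 26.1 at 2 days; these groups did not overlap, yet the gene did not pass (log2 fold change 2.21, standard error 1.17, adjusted p 0.145). The fit uses 1 spread over all 4 groups, and the control arrays at 2 days covered a wider range for these genes. DptB stood at 5379, 1543 and 48.1 in them, Mtk at 10454, 5676 and 173 and Drs at 12397, 9999 and 2804. The Bomanins are short peptides released on Toll activation. Of 9 genes of Bomanins and other immune-induced peptides 2 rose and 0 fell, the rises near the 19.9% of all genes. The risers were BomT2, with 2489.8, 2762 and 2269.6 against 1418, 1184 and 1097 (1.03), and BomS4, with 3873, 3960.0 and 3855 against 3084, 3129 and 3126 (0.32). The median over the 9 was 0.32. The number of antimicrobial peptide genes called higher became 1 without high-sugar 4-week array 3 or high-sugar 2-day array 2 or with robust estimation and 2 without high-sugar 4-week arrays 1 or 2 or high-sugar 2-day array 3 or without a filter.

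Many genes of the pathways that switch these effectors on rose as well, by smaller amounts. Bacterial peptidoglycan is sensed by PGRP proteins, and the Imd cascade passes the signal to the transcription factor Relish. The Toll receptor is activated by its ligand, spz. Of 22 Toll and Imd signalling genes tested, 11 rose and 0 fell, with a median of 0.24. The adaptor gene imd (gene 44339) measured 383, 353 and 388 at 4 weeks and 233, 167 and 230.4 at 2 days, a change of 0.85 (standard error 0.15, adjusted p 0.000933). The gene of Relish, Rel, measured 2198, 2151 and 2635 against 1558, 1287 and 1327 (0.74), and spz 555, 434 and 660.2 against 294, 309 and 407 (0.70). IKKbeta (0.53) encodes a kinase that activates Relish. All 4 of these genes had groups that did not overlap, as did 28.6% of all genes with the 4-week arrays higher. Of 9 recognition and pirk genes 5 rose and 0 fell. PGRP-LF (1.06) and PGRP-LB (0.94) both encode proteins that damp the Imd pathway, the second by cutting peptidoglycan. PGRP-LF measured 255, 277 and 341 against 151, 130.0 and 135, and PGRP-LB 622, 615 and 636 against 417, 294 and 280.2. The Imd inhibitor gene pirk (0.97), PGRP-LA (0.52, or 0.78 without high-sugar 4-week array 1) and GNBP2 (0.28) rose too. PGRP-SB1 (1.15), GNBP3 (0.26), PGRP-LE (0.11) and PGRP-SC2 (-0.36) did not pass, and only the last had a negative value. Stat92E, the transcription factor of the JAK-STAT pathway, measured 4667, 4249 and 4069 against 3235, 3189.6 and 3254 and rose by 0.42; the stress peptide gene TotC did not pass, with 1250.4, 3031 and 3168 against 2967, 354 and 972. Of the lysozyme genes, LysX (1.49) rose, while LysP (0.05) and LysS (-0.03) did not pass. Calls lost when a single array was left out, with the adjusted p then given, were pirk without high-sugar 4-week array 3 or high-sugar 2-day arrays 2 or 3 (0.0522 to 0.0759), PGRP-LA without high-sugar 4-week arrays 2 or 3 or high-sugar 2-day arrays 2 or 3 or control 4-week arrays 1, 2 or 3 or control 2-day arrays 1, 2 or 3 (0.0515 to 0.203), GNBP2 without high-sugar 4-week arrays 1, 2 or 3 or high-sugar 2-day arrays 1 or 2 (0.0672 to 0.117) and LysX without high-sugar 4-week arrays 2 or 3 or high-sugar 2-day arrays 1 or 2 (0.0942 to 0.128). The number of Toll and Imd signalling genes called higher became 7 without high-sugar 4-week array 3. The number of recognition and pirk genes called higher became 2 without high-sugar 4-week array 3 or high-sugar 2-day array 2 and 3 without high-sugar 4-week array 2 or high-sugar 2-day array 3 or without a filter. Other processing lost, at the adjusted p given, the calls of pirk (0.0516), PGRP-LA (0.0909) and LysX (0.0935) without a filter, PGRP-LA (0.0581) and LysX (0.0511) without a trend, PGRP-LA (0.0827) and GNBP2 (0.0532) with only the 6 arrays compared and LysX (0.0952) with robust estimation.

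**Figure D2:**
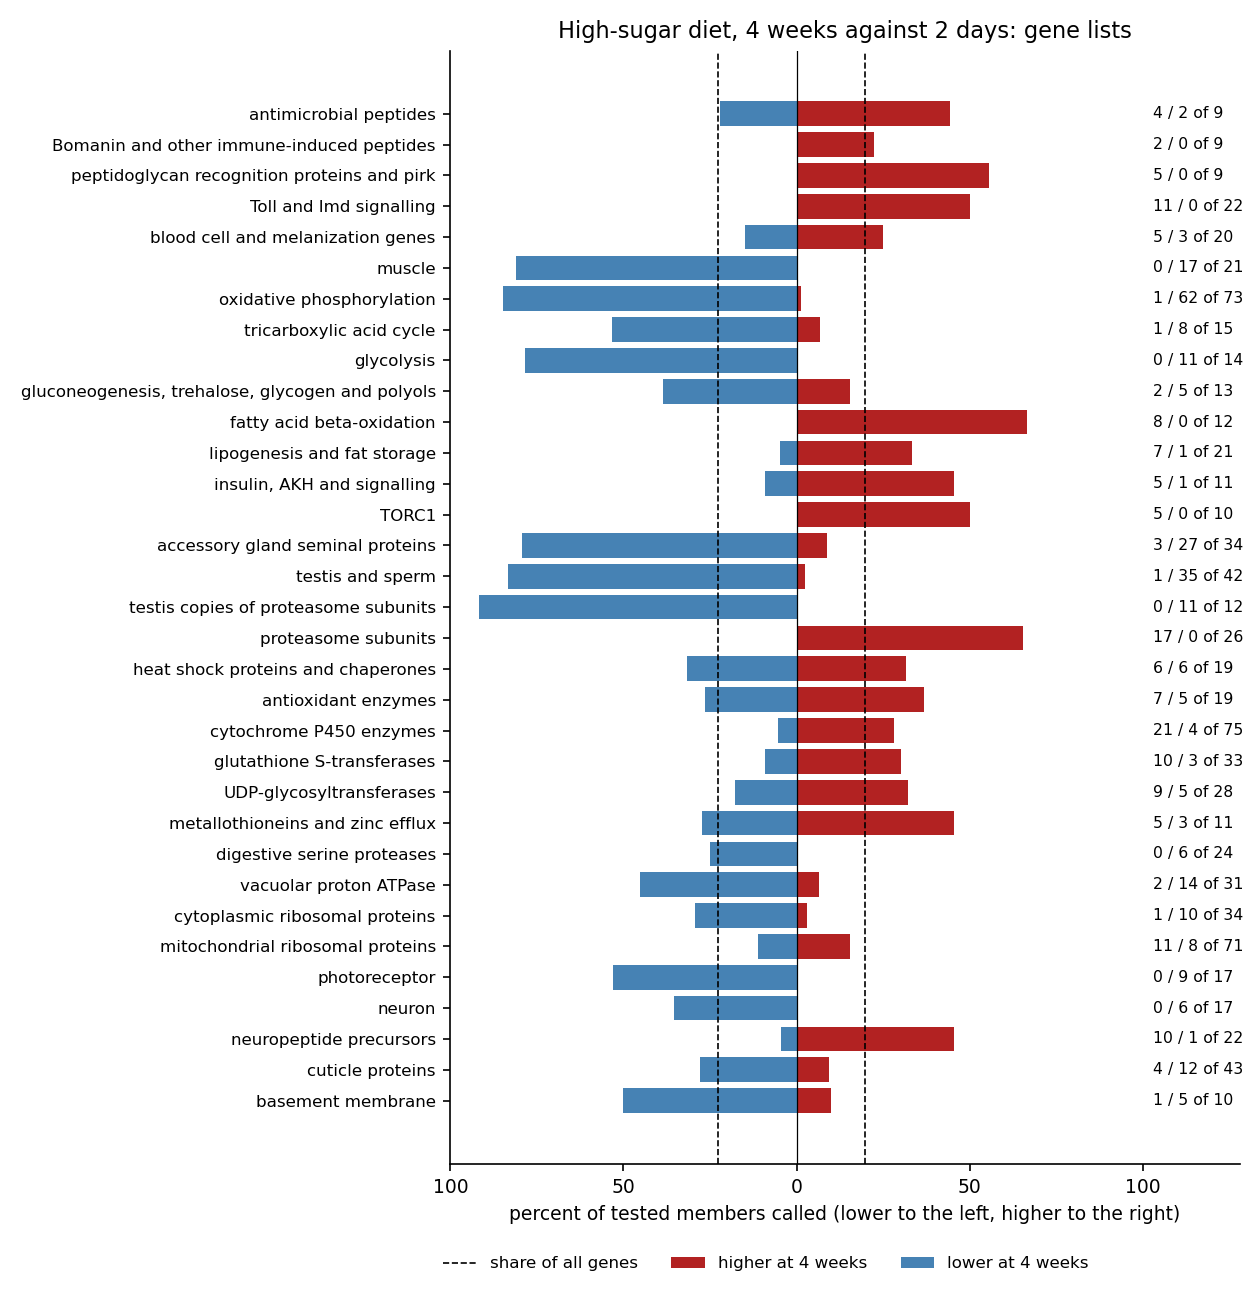
Bars give the percent of tested members of each gene list that were called lower (blue, to the left) or higher (red, to the right) at 4 weeks on high sugar, and dashed lines give the shares of all genes tested, 22.7% lower and 19.9% higher. The counts at the right are higher, lower and tested; muscle (0, 17 and 21), oxidative phosphorylation (1, 62 and 73) and proteasome subunits (17, 0 and 26) stand far outside those lines.

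Genes of blood cells and melanization split. PPO1 (-1.89) and PPO2 (-1.73), which encode the prophenoloxidases of crystal cells, fell together: PPO1 measured 133, 112 and 91.2 at 4 weeks and 412, 329 and 512 at 2 days, and PPO2 91.5, 84.2 and 70.1 against 228, 242 and 361. The peroxidasin gene Pxn (-0.69), made by haemocytes, fell as well. vir-1 (gene 34652), known for its induction by virus infection, measured 2061, 1796 and 2335 against 666, 443 and 569.7 (1.89, adjusted p 6.11e-05). NimB2 (0.69), yellow-f (0.94) and the GATA factor gene srp (0.62) were the other risers named. In all 5 of 20 rose and 3 fell, shares not far from those of all genes, with a median of 0.28. The summed intensity of the list, which includes vir-1, was 10800 to 11770 at 4 weeks and 7419 to 8621 at 2 days. Its mean log2 intensity, in which each gene counts equally, differed little, at 7.65 to 7.68 and 7.4 to 7.62. The part of blood cells in the rise of the immune genes was not tested. With 1 array left out the call was lost, at the adjusted p in parentheses, for yellow-f without high-sugar 4-week arrays 2 or 3 or high-sugar 2-day arrays 2 or 3 (0.0695 to 0.0813). The number of blood cell and melanization genes called higher became 8 with only the 6 arrays compared. Under other processing choices, calls lost at the adjusted p given were yellow-f (0.0546) without a filter.

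Muscle genes fell, and among them the calcium-binding proteins fell most. Scp1 (gene 3355102), which encodes a sarcoplasmic calcium-binding protein, measured 1484, 985 and 878 at 4 weeks and 11536, 13537 and 11959 at 2 days. The change was -3.50 on the log2 scale, 11.3-fold lower, with a standard error of 0.20 and an adjusted p of 5.62e-07. TpnC4 (gene 35498), the main troponin C of the flight muscle, measured 516, 399 and 242 against 2810.2, 2245 and 5408 (-3.14). TpnC41C (gene 35473), a troponin C of other muscles and of the flight muscle, measured 1169, 900.1 and 1015 against 4618, 5699 and 5009 (-2.32). The flightin gene fln, for a thick filament protein of the flight muscle, measured 902, 484 and 432 against 1617, 1655 and 3057 (-1.81). In all 4 genes the 2 groups did not overlap, as in 26.5% of all genes with the 4-week arrays lower. Of 21 muscle genes 17 fell and 0 rose, against 22.7% and 19.9% of all genes, with a median of -0.57. Their summed intensity was 64460 to 65160 in the 4-week arrays and 108300 to 121800 in the 2-day arrays. Further genes with the largest falls relative to their error were the calcium pump gene SERCA (gene 49297), Fhos (gene 39004), which encodes a formin of muscle, and CG7409. SERCA measured 4098, 3988 and 4004 against 11934, 12788 and 12478 (-1.62, standard error 0.07, adjusted p 9.84e-08). Fhos measured 603, 525 and 647 against 1884, 1884 and 2311 (-1.77), and CG7409 2651, 3187 and 3137 against 7492, 8382 and 7999.9 (-1.41). The fall of this group was also measured on control diet, where 18 of 21 fell and Scp1 changed by -3.60.

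**Figure D3:**
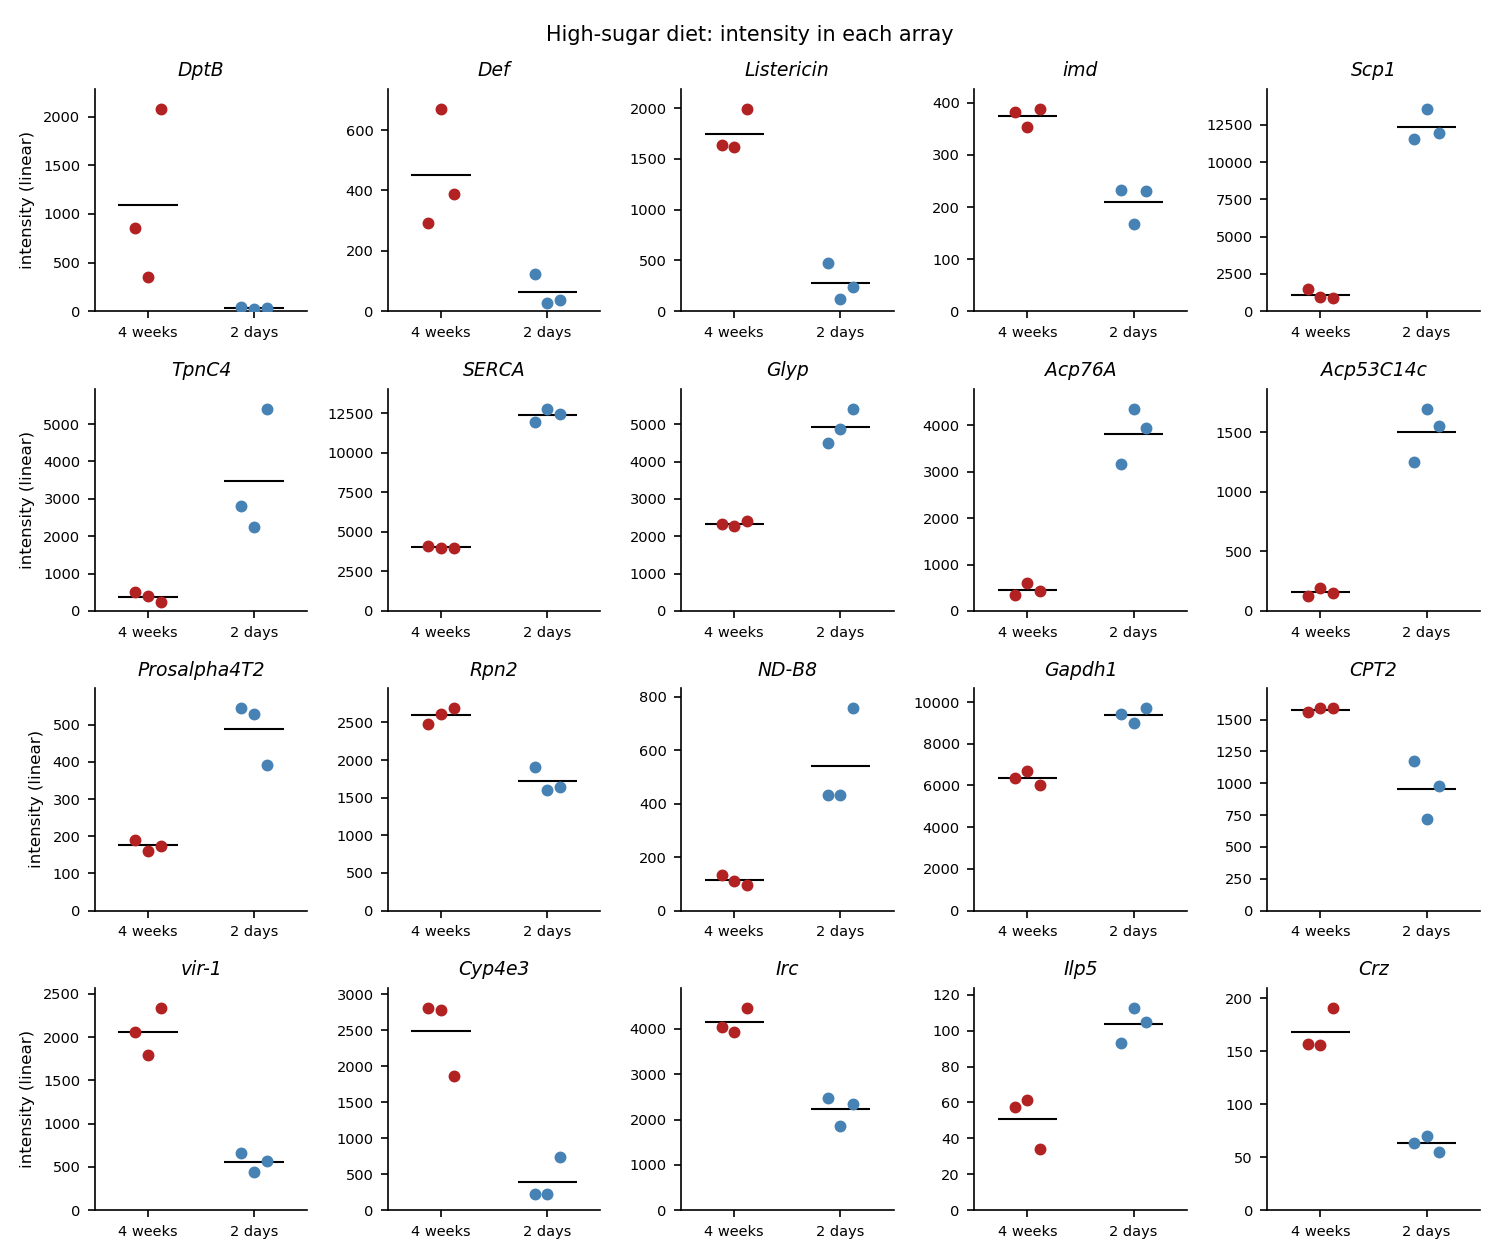
Points are the linear intensities of the 3 arrays of each group for 20 named genes, 4 weeks (red) left of 2 days (blue), and black lines are group means; each panel has its own axis from 0. Groups are apart in every panel, as in 55.1% of all genes tested. Scp1, for example, lies between 878 and 1484 at 4 weeks and between 11536 and 13537 at 2 days. The 3 values of DptB at 4 weeks are widely spread.

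Most of the respiratory chain was lower at 4 weeks, by modest amounts. The chain passes electrons through complexes I to IV of the inner mitochondrial membrane and drives ATP synthase. Of 73 subunit genes tested 62 fell and 1 rose, with a median of -0.41. The symbols of 19 end in L or in L and a digit. That ending often marks duplicated genes, which in flies are mostly expressed in the testis. This split was made by symbol alone and after the values were seen, so the 19 are not all shown here to be copies. Of these 19 genes 15 fell, with a median of -0.65, and of the other 54 subunits 47 fell, with a median of -0.37. Within the second set complex I had 22 of 26 lower (median -0.32), complex III 6 of 7 (-0.39), complex IV 8 of 9 (-0.39) and ATP synthase 11 of 12 (-0.39). The largest fall was that of ND-B8 (gene 50178), a complex I subunit, with 133, 111 and 96.9 at 4 weeks against 433, 433 and 757 at 2 days (-2.21, adjusted p 3.74e-05). Next came the copies COX7AL2, with 3286, 3198 and 2942 against 6239, 6669 and 7172 (-1.09), UQCR-14L (-1.04) and ND-20L (-1.02). The sole rise was that of the complex III subunit gene UQCR-11, which was dim, with 78, 89.1 and 108 against 48.8, 29.3 and 30.8 (1.36). Muscle and testis markers fell in the same arrays: of 21 and 42 markers 17 and 35 were lower. The summed intensity of the muscle markers was 64460 to 65160 at 4 weeks and 108300 to 121800 at 2 days, and that of the testis markers 88200 to 99310 and 127200 to 141800 at the same times. Their part in the change of the mitochondrial genes was not tested.

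The tricarboxylic acid cycle, which feeds the chain with electrons, was lower too. Of 15 genes 8 fell and 1 rose, with a median of -0.37. The NAD-dependent isocitrate dehydrogenase had all 3 subunit genes lower: Idh3g (-0.87), Idh3a (-0.44) and Idh3b (-0.37). Idh3g measured 1505, 1622 and 1651 against 2869, 2881 and 2983. Succinate dehydrogenase, which is also complex II, had SdhD (-0.69), SdhB (-0.40) and SdhC (-0.38) lower, and SdhD measured 2592, 2326 and 2307 against 3807, 3833 and 4005. Aconitase mAcon1 (-0.48) and muc (-0.39), a subunit of the pyruvate dehydrogenase complex, completed the falls. The rise was that of Pdk, the kinase that switches pyruvate dehydrogenase off, with 4427, 4275 and 3706 against 3109.6, 2752 and 2890.5 (0.50, adjusted p 0.00063). With quantile normalization the change of mAcon1 was -0.29. The number of tricarboxylic acid cycle genes called higher became 4 with quantile normalization.

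Most genes of glycolysis fell. Of 14 glycolytic genes 11 fell and 0 rose, with a median of -0.32. Pfk (gene 36060), the phosphofructokinase that commits sugar to the pathway, measured 1423, 1310.3 and 1351 at 4 weeks and 2159, 2327 and 2239 at 2 days (-0.72, standard error 0.08, adjusted p 7.1e-05). Gapdh1 measured 6341, 6682 and 6040.0 against 9422, 8998 and 9691 (-0.56). Phosphoglycerate kinase Pgk (-0.46), hexokinase Hex-A (-0.32), Ald1 (-0.33), Eno (-0.24), Pglym78 (-0.23) and Tpi (-0.19) fell by less. The hexokinase genes of the testis, Hex-t2 (-1.01) and Hex-t1 (-0.61), and the phosphoglycerate mutase copy Pglym87 (-0.99) fell by more. Hex-C (-0.12), the hexokinase of the fat body, Pgi (-0.03) and Gpdh1 (-0.03) did not pass. Among 13 genes that make glucose, trehalose or polyols or handle glycogen, 5 fell and 2 rose, with a median of -0.13 (-0.22 to -0.08 over the alternatives). Glycogen phosphorylase Glyp (gene 33386), which breaks glycogen down, measured 2318, 2265 and 2416 against 4488, 4874 and 5411 (-1.07), and glycogen synthase Glys (gene 41823) measured 1796, 1855 and 1524 against 2823, 3303 and 3232 (-0.86). The glucose-6-phosphatase gene G6P (-0.63) and the sorbitol dehydrogenase genes Sodh1 (-0.38) and Sodh2 (-0.49) fell. In contrast Pepck2, with 291, 356 and 336 against 216, 179.9 and 197 (0.73), and fructose bisphosphatase fbp, with 2859, 2769 and 2523 against 2014, 1648 and 1846 (0.57), rose. The bright Pepck1 (0.04), the trehalose synthase gene Tps1 (0.05) and trehalase Treh (0.11) did not pass, nor did AGBE, for the enzyme that branches glycogen (-0.21, adjusted p 0.174). In the pentose phosphate pathway Taldo (0.24) rose (0.37 with quantile normalization), Rpe (-0.44) fell, and Pgls (0.22) and Rpi (0.17) did not pass. The muscle and testis markers that were lower in the same arrays, 17 of 21 and 35 of 42, moved with these genes too, and their part in this change was not tested. With 1 array left out the call was lost, at the adjusted p in parentheses, for Pglym78 without high-sugar 4-week arrays 1 or 3 or high-sugar 2-day arrays 1 or 3 (0.0725 to 0.0855). Other processing choices ended the call (adjusted p in parentheses) of Ald1 (0.107), Eno (0.434), Pglym78 (0.17) and Tpi (0.552) with quantile normalization, Ald1 (0.0968) with the mean of all probe sets, Pglym78 (0.0624) with arrays centred on their medians and Pglym78 (0.067) and Tpi (0.0591) without a trend.

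Seminal fluid and sperm genes were lower at 4 weeks. The accessory glands make proteins that males pass to females in the seminal fluid. Of 34 such genes 27 fell and 3 rose, with a median of -0.81, the lowest of any list described here. Acp53C14c (gene 3346203) measured 128, 190.1 and 152 at 4 weeks and 1249, 1698 and 1550.1 at 2 days (-3.27, adjusted p 1.38e-05). Acp76A (gene 40078), a serpin of the seminal fluid, measured 340.2, 608 and 429 against 3174, 4355 and 3934 (-3.09). Spn28F, also a serpin gene, measured 770.0, 1439 and 682 against 5401, 5966 and 6307 (-2.69). aqrs, which belongs to the network of the long-term response of mated females, measured 437, 476 and 463 against 1508, 1969.9 and 1529 (-1.85). The ovulation-stimulating prohormone gene Acp26Aa measured 2143, 2847 and 1864 against 6386, 8253 and 7716 (-1.72). The similarly named Acp26Ab rose, with 6038, 5234 and 6096 against 4054, 4486 and 4064 (0.46), as did Acp32CD (0.51) and lectin-46Cb (0.35). The fall was not shared by every seminal protein gene, and 4 of the 34 did not pass. Leaving out a single array ended the call (adjusted p in parentheses) of Acp32CD without high-sugar 4-week array 2 or high-sugar 2-day array 3 (0.0528 to 0.0555) and lectin-46Cb without high-sugar 4-week arrays 1 or 2 or high-sugar 2-day arrays 1 or 3 (0.0633 to 0.136). The number of seminal protein genes called higher became 1 without high-sugar 4-week array 2 or high-sugar 2-day array 3.

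Of 42 testis and sperm genes 35 fell and 1 rose, with a median of -0.50. Tpl94D, a transition protein that packs DNA in the sperm head, measured 384, 382 and 419 at 4 weeks and 758, 872 and 699 at 2 days (-0.97). fzo, the mitofusin that fuses mitochondria in spermatids, measured 159, 139 and 117 against 304, 294 and 207 (-0.95). Mst57Dc (-1.01) and the sperm leucyl aminopeptidase gene S-Lap5 (-0.95) were the other largest falls, and Mst85C (0.36) was the rise. Mst57Dc and Mst85C entered the list by the start of their symbols alone, so neither is shown here to be a testis gene. Several proteasome subunits have a further, testis-specific gene, and of 12 of these 11 fell and 0 rose (median -0.59). Prosalpha4T2 (gene 37910) measured 190.0, 162 and 174 against 544, 528 and 392 (-1.47, adjusted p 7.35e-05), and Prosalpha6T (-1.07) and Prosbeta5R2 (-0.75) came next; Rpt4R (-0.50) did not pass. Of 8 genes of the early germ line esg (0.85), which is also a gene of intestinal stem cells, rose, bgcn (-0.31) fell, and aub (-0.09), piwi (0.47) and the others did not pass. The calls that depended on 1 array, with the adjusted p without it, were Mst85C without high-sugar 4-week arrays 1 or 3 or high-sugar 2-day array 2 or control 4-week arrays 1 or 2 or control 2-day arrays 1, 2 or 3 (0.0507 to 0.205) and bgcn without high-sugar 4-week arrays 2 or 3 or high-sugar 2-day arrays 1, 2 or 3 (0.0504 to 0.169). Under other processing choices, calls lost at the adjusted p given were Mst85C (0.0653) without a filter, Mst85C (0.082) with only the 6 arrays compared and bgcn (0.0569) with quantile normalization.

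Most general proteasome genes rose, unlike the testis copies. The proteasome degrades ubiquitin-tagged proteins, and of its 26 general subunit genes 17 rose and 0 fell, with a median of 0.29. Rpn2 (gene 43449), a subunit of the regulatory particle, measured 2480.2, 2617 and 2686 at 4 weeks and 1902, 1602 and 1645 at 2 days (0.60, adjusted p 0.000696). The catalytic subunit genes Prosbeta5 (0.48) and Prosbeta2 (0.45) and the core gene Prosbeta4 (0.47) rose by similar amounts, and Prosbeta5 measured 3224, 3377 and 3372 against 2657, 2240.0 and 2271. Of 21 autophagy genes 3 rose and 2 fell, both under the shares of all genes, 19.9% and 22.7%. Atg17, part of the initiating kinase complex, measured 368, 373 and 454 against 204, 189 and 177 (1.06), and Atg3 (0.62) and the cargo receptor gene ref(2)P (0.33) rose. Atg8b, known for its role in male germ cells, measured 1324, 1045 and 1078 against 2168, 2306 and 1846 (-0.88). The other fall, that of Atg8a (-0.13, adjusted p 0.0485), was small and was 0.00 with quantile normalization. Calls lost when a single array was left out, with the adjusted p then given, were Atg8a without high-sugar 4-week arrays 1, 2 or 3 or high-sugar 2-day arrays 1, 2 or 3 or control 4-week array 3 or control 2-day arrays 1, 2 or 3 (0.0513 to 0.137). The number of general proteasome genes called higher became 8 without high-sugar 2-day array 3 and 10 without high-sugar 4-week array 3. The number of autophagy genes called higher became 5 without high-sugar 2-day array 3 or with quantile normalization or with array weights. Other processing choices ended the call (adjusted p in parentheses) of Atg8a (0.966) with quantile normalization, Atg8a (0.143) with arrays centred on their medians, Atg8a (0.168) without a trend, Atg8a (0.0552) with robust estimation and Atg8a (0.0685) with only the 6 arrays compared.

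Chaperone genes moved in both directions, 6 higher and 6 lower of 19 (median 0.00), against 19.9% and 22.7% of all genes. Those that rose were led by stv (0.62), a co-chaperone of muscle, Hsp110 (0.53) and the mitochondrial Hsc70-5 (0.43); stv measured 2188, 2015 and 2269 against 1608, 1370.1 and 1257. Those that fell were led by Hsc70-2, with 543, 440.1 and 409 against 1027, 999.6 and 828 (-1.04), and by Hsp60D (-0.92), Hsp60B (-0.75) and Hsp60C (-0.56), copies of the mitochondrial chaperonin gene of which Hsp60B is known to be needed in sperm formation. In the unfolded protein response of the endoplasmic reticulum 2 of 10 genes rose, Sil1 (0.57) and the kinase gene PEK (0.36), and 0 fell. The share that rose was near the 19.9% of all genes. The bright chaperone gene Hsc70-3 (0.02) and Gp93 (0.04), Ire1 (0.13) and Atf6 (0.18) did not pass. With 1 array left out the call was lost, at the adjusted p in parentheses, for PEK without high-sugar 4-week arrays 1, 2 or 3 or high-sugar 2-day arrays 1, 2 or 3 or control 4-week array 2 or control 2-day arrays 1, 2 or 3 (0.0501 to 0.132). The number of chaperone genes called higher became 3 without high-sugar 4-week array 3 or high-sugar 2-day array 2. Other processing lost, at the adjusted p given, the calls of PEK (0.0549) without a filter.

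Enzymes that remove oxidants were divided as well, with 7 higher and 5 lower of 19 (median 0.09), against 19.9% and 22.7% of all genes. Irc (gene 42049), an immune-regulated catalase, measured 4045, 3921 and 4459 at 4 weeks and 2479.7, 1868 and 2336 at 2 days (0.90, adjusted p 0.000981). cnc, the Nrf2-type transcription factor of the oxidant response, measured 5019.7, 4675 and 4734 against 3636, 3493 and 3476 (0.44). Gclm (0.48), a subunit of the enzyme that starts glutathione synthesis, and Ccs (0.56), the copper chaperone of superoxide dismutase, rose. Trxr2, thioredoxin reductase 2, measured 173, 154 and 138 against 289, 333 and 251 (-0.91). Prx6c (-0.77), Sod3 (-0.63, or -0.41 with the mean of all probe sets) and the testis thioredoxin gene TrxT (-0.56) fell. Leaving out a single array ended the call (adjusted p in parentheses) of Gclm without high-sugar 4-week array 1 or high-sugar 2-day array 2 (0.0667 to 0.0756) and Ccs without high-sugar 4-week arrays 1 or 2 or high-sugar 2-day arrays 1, 2 or 3 (0.0521 to 0.1). The number of antioxidant enzyme genes called higher became 4 without high-sugar 4-week array 1 or high-sugar 2-day array 2. Under other processing choices, calls lost at the adjusted p given were Ccs (0.0621) without a filter.

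Detoxification families had more rises than falls, where 19.9% of all genes rose and 22.7% fell. Cytochrome P450 enzymes oxidise foreign compounds, hormones and fatty acids, and 21 of 75 tested rose while 4 fell (median 0.16, and 0.11 to 0.25 over the alternatives). Cyp4e3 (gene 34291) measured 2810.1, 2789.9 and 1871 at 4 weeks and 225, 221 and 745 at 2 days (2.88, standard error 0.48, adjusted p 0.000653); array 3 of the 2-day group was the highest of its group and still below all 4-week arrays. Cyp4d1 (1.54), Cyp4p1 (1.15) and Cyp4ac3 (1.10) were the next largest rises, all of the Cyp4 family. Cyp312a1 (-0.84), Cyp28c1 (-0.80), Cyp6t1 (-0.77) and Cyp305a1 (-0.43) were the falls. Glutathione S-transferases couple glutathione to toxic compounds, and of 33 of them 10 rose and 3 fell. GstD2 measured 213, 491 and 545 against 117, 98.2 and 131 (1.75), GstE1 1416, 1444 and 1542 against 977, 707 and 696 (0.90), and GstE7 (0.79) and GstZ1 (0.68) followed. The bright GstS1 (-0.43) fell, as did GstE13 (-0.51) and GstE14 (-0.64). UDP-glycosyltransferases, which couple sugars to such compounds, had 9 higher and 5 lower of 28, the falls not far from the share of all genes. Ugt304A1 (0.83) and Ugt49C1 (0.64) rose, and Ugt50B3, with 1129.9, 1309.7 and 1272 against 2909.7, 3054 and 2736 (-1.23), fell. The calls that depended on 1 array, with the adjusted p without it, were Cyp305a1 without high-sugar 4-week arrays 1, 2 or 3 or high-sugar 2-day arrays 1, 2 or 3 or control 2-day arrays 1 or 2 (0.0532 to 0.133) and GstE14 without high-sugar 4-week arrays 2 or 3 or high-sugar 2-day arrays 1 or 2 (0.0642 to 0.138). The number of UDP-glycosyltransferase genes called higher became 5 without high-sugar 2-day arrays 2 or 3. The number of UDP-glycosyltransferase genes called lower became 2 without high-sugar 4-week arrays 2 or 3 or high-sugar 2-day array 3 and 3 without high-sugar 2-day array 2 or with arrays centred on their medians or without a filter. Other processing choices ended the call (adjusted p in parentheses) of Cyp305a1 (0.103) with quantile normalization, Cyp305a1 (0.0614) with arrays centred on their medians, Cyp305a1 (0.0782) without a filter and Cyp305a1 (0.0544) without a trend.

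Metallothioneins, small proteins that bind zinc and copper, rose on high sugar in 3 of 4 genes tested. MtnD (gene 326270) measured 1929.6, 1556 and 1421 at 4 weeks and 665, 369 and 738 at 2 days (1.52, adjusted p 0.000405). MtnC measured 5034, 3984 and 2124 against 1647, 1663 and 1923 (1.01), with array 3 of 4 weeks only a little above the 2-day arrays. MtnB measured 171, 166 and 76.6 against 72.1, 46.5 and 78.3 (1.01), and its array 3 of 4 weeks fell within the range of the 2-day arrays. The very bright MtnA measured 13829.9, 13884 and 11987 against 11774, 12442 and 12239 and did not pass (0.12, adjusted p 0.226). Its values lay near the highest intensity of the table, 16579.5. MTF-1 (0.38), the metal-responsive transcription factor of these genes, rose. Among zinc transporters ZnT86D (0.34) rose and ZnT33D (-0.74), ZnT77C (-0.52) and ZnT41F (-0.41) fell. On control diet the changes of MtnD (0.38), MtnC (0.01) and MtnB (-0.57) did not pass, and the difference between the diets did not pass for any of them (adjusted p 0.617, 0.655 and 0.542). Of 11 iron genes 3 rose and 0 fell, against 19.9% and 22.7% of all genes. Tsf2, a transferrin of the epithelial junctions, measured 896, 639.6 and 816 against 425, 402 and 463 (0.85), and the iron importer genes Mvl (0.55) and mfrn (0.31) rose. The ferritin genes Fer1HCH (-0.02) and Fer2LCH (-0.04) and the transferrin gene Tsf1 (-0.01), all very bright, did not pass. With quantile normalization, Fer1HCH and Tsf1 were called higher instead (0.12 and 0.16). Calls lost when a single array was left out, with the adjusted p then given, were MtnB without high-sugar 4-week arrays 1 or 2 or high-sugar 2-day array 2 (0.0678 to 0.0804), MTF-1 without high-sugar 4-week array 1 or high-sugar 2-day array 1 (0.0552 to 0.0678), ZnT86D without high-sugar 4-week arrays 1 or 2 or high-sugar 2-day arrays 1, 2 or 3 (0.0513 to 0.0838), Mvl without high-sugar 4-week array 1 or high-sugar 2-day array 2 (0.0567 to 0.0643) and mfrn without high-sugar 4-week arrays 1, 2 or 3 or high-sugar 2-day arrays 1 or 2 (0.0509 to 0.103). The number of iron genes called higher became 1 without high-sugar 4-week array 1 or high-sugar 2-day array 2 and 5 with quantile normalization.

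Genes that sense and signal nutrients rose more often than they fell. Mondo and its partner bigmax form the sugar-sensing transcription factor, which acts in part through sug, cbt and the activin-type ligand daw. Of 6 tested 4 rose and 0 fell, against 19.9% and 22.7% of all genes. daw (gene 33474) measured 506, 667 and 552 at 4 weeks and 339, 292 and 377 at 2 days (0.77, standard error 0.14, adjusted p 0.00116). cbt measured 4208, 3421 and 3583 against 3205, 2478 and 2745 (0.41), and bigmax (0.45) and Mondo (0.31) rose too. sug did not pass, with 1146, 1049 and 888 against 988, 398 and 688 ; 2-day array 1 lay above 4-week array 3 (0.66, adjusted p 0.139). Lime (0.30) did not pass either. With 1 array left out the call was lost, at the adjusted p in parentheses, for bigmax without high-sugar 4-week array 3 or high-sugar 2-day array 2 (0.0594 to 0.0745) and Mondo without high-sugar 4-week arrays 1 or 3 or high-sugar 2-day array 3 (0.0511 to 0.0652). The number of sugar-sensing genes called higher became 2 without high-sugar 4-week array 3.

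In the insulin pathway 5 of 11 genes rose and 1 fell, against 19.9% and 22.7% of all genes. The fall was that of Ilp5 (gene 2768992), an insulin-like peptide of the brain, with 57.6, 61.3 and 34.2 at 4 weeks against 93.2, 113 and 105 at 2 days (-1.06, adjusted p 0.00216). Ilp2 (0.34), made by the same cells, did not pass, nor did the adipokinetic hormone gene Akh (0.19) and its receptor AkhR (0.74). The kinase gene Akt (gene 41957) measured 1054, 903 and 1135 against 493, 446 and 571 (1.04, adjusted p 0.000208). ImpL2, which binds and restrains insulin-like peptides, measured 3493, 3686 and 4159 against 2705, 2034 and 1835 (0.80). The receptor InR (0.64), its substrate chico (0.38) and Pdk1 (0.39) rose, and foxo (0.41) did not pass. Of 10 genes of TORC1, the growth kinase complex that reads amino acids, 5 rose and 0 fell. Iml1 (gene 38176), a subunit of the GATOR1 complex that restrains TORC1 when amino acids are scarce, measured 894, 733 and 871 against 307, 335 and 334 (1.35, standard error 0.14, adjusted p 4.73e-05). Its partners Nprl2 (0.20) and Nprl3 (0.07) did not pass. REPTOR (0.72), a transcription factor that TORC1 keeps inactive, S6k (0.45), RagC-D (0.34) and Tsc1 (0.33) rose. Sugar transporters moved in both directions, with 3 higher and 2 lower of 9 and a median of -0.01. Of these sut2 (0.53), SLC5A11 (0.43) and Glut1 (0.41) rose, sut4 (-0.72) and sut3 (-0.61) fell, and the trehalose transporter gene Tret1-1 (-0.01) did not pass. Leaving out a single array ended the call (adjusted p in parentheses) of InR without high-sugar 4-week array 3 or high-sugar 2-day arrays 2 or 3 (0.0639 to 0.108), Pdk1 without high-sugar 4-week array 3 or high-sugar 2-day array 2 (0.0885 to 0.106), RagC-D without high-sugar 4-week array 1 or high-sugar 2-day array 2 (0.0525 to 0.0711), Tsc1 without high-sugar 4-week array 1 or high-sugar 2-day array 2 (0.0626 to 0.0709) and Glut1 without high-sugar 4-week arrays 2 or 3 or high-sugar 2-day arrays 2 or 3 (0.0575 to 0.0967). The number of insulin pathway genes called higher became 3 without high-sugar 2-day array 2. The number of TORC1 genes called higher became 3 without high-sugar 4-week array 1 or high-sugar 2-day array 2. Other processing choices ended the call (adjusted p in parentheses) of InR (0.0609) without a filter and Glut1 (0.965) with the mean of all probe sets.

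Fat burning genes rose, in contrast to the respiratory chain. Of 12 genes of beta-oxidation, which breaks fatty acids down to acetyl-CoA, 8 rose and 0 fell, with a median of 0.31. CPT2 (gene 38355), which releases fatty acids from carnitine inside mitochondria, measured 1559, 1587 and 1587 at 4 weeks and 1175, 721 and 975 at 2 days (0.75, adjusted p 0.00176). yip2, a thiolase gene, measured 4660.4, 4739 and 4749.7 against 3569, 3294 and 3155 (0.50, adjusted p 0.000262). Arc42 (0.42), wal (0.28), scu (0.24), colt (0.36), Acox57D-p (0.45) and the nuclear receptor gene Hnf4 (0.33) rose by less. whd (0.09), the carnitine palmitoyltransferase of the outer membrane, Mtpbeta (0.12) and Echs1 (0.13) did not pass. On control diet 2 of the 12 rose, with a median of 0.07; the difference between diets passed for 0 of them. Of 21 fat synthesis and storage genes 7 rose and 1 fell. FASN2, a fatty acid synthase gene, measured 3469, 3478 and 3826 against 3019, 2275 and 2101 (0.56), while FASN3, the fatty acid synthase of oenocytes, measured 3423, 2902 and 2929.9 against 4213, 4616 and 4133 (-0.49, adjusted p 0.000657). Agpat3 (0.47), the lipid droplet gene Lsd-1 (0.50) and the triglyceride lipase gene bmm (0.47) rose. The calls that depended on 1 array, with the adjusted p without it, were colt without high-sugar 4-week arrays 1 or 2 or high-sugar 2-day arrays 2 or 3 (0.0523 to 0.0823), Acox57D-p without high-sugar 4-week arrays 1 or 2 or high-sugar 2-day array 2 (0.0515 to 0.0881), Hnf4 without high-sugar 4-week array 3 (0.0651) and Lsd-1 without high-sugar 4-week arrays 1, 2 or 3 or high-sugar 2-day arrays 1 or 2 (0.0698 to 0.106). The number of fat synthesis and storage genes called higher became 3 without high-sugar 4-week array 1, 4 without high-sugar 4-week array 3 and 11 without control 4-week array 2 or with only the 6 arrays compared. Other processing lost, at the adjusted p given, the calls of colt (0.0631) with quantile normalization, Lsd-1 (0.0852) without a filter, Lsd-1 (0.0563) without a trend and Lsd-1 (0.0518) with robust estimation.

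Among gut digestive genes more fell than rose. Serine proteases of the gut split dietary protein, and 6 of their 24 genes fell while 0 rose, near the share of all genes that fell, with a median of -0.28 (-0.50 to -0.14 over the alternatives, with 4 to 8 genes lower). epsilonTry (gene 49080), a trypsin gene, measured 1622, 1688 and 1370.4 at 4 weeks and 3718, 3407 and 3317 at 2 days (-1.16, adjusted p 0.000197). Jon74E measured 4379, 4052 and 3366 against 6338, 7068 and 5741 (-0.70), Jon25Biii 1634, 972 and 395 against 1717, 2515 and 3009 (-1.46), and the very bright betaTry fell by a small amount (-0.28, or -0.16 with quantile normalization). Lipase genes had 3 lower and 1 higher of 10, against 22.7% and 19.9% of all genes (2 to 5 lower and 0 to 2 higher over the alternatives). CG17192 measured 44.9, 54.9 and 20.8 against 228, 254 and 265 (-2.74), CG8093 (-0.82) and Lip3 (-0.74) fell, and Lip4 (0.43) rose. For sugar digestion 3 fell and 1 rose of 12, the falls again near the 22.7% of all genes (2 to 4 lower and 1 to 3 higher over the alternatives). Amyrel, an amylase-related gene, measured 180.1, 202 and 151 against 463, 459 and 277 (-1.14), and the maltase gene Mal-A5 (-0.70) fell. Mal-B1, also a maltase gene, measured 3178, 2248 and 2315 against 986, 1146 and 1375 and rose (1.14). The brightest maltase genes Mal-A1 (-0.10), Mal-A6 (0.10) and Mal-A7 (0.08) did not pass. The very bright glucosidase gene tobi (-0.17) also fell. Calls lost when a single array was left out, with the adjusted p then given, were Jon25Biii without high-sugar 4-week array 3 or high-sugar 2-day arrays 2 or 3 (0.0626 to 0.0953), Lip3 without high-sugar 4-week arrays 2 or 3 or high-sugar 2-day arrays 1, 2 or 3 (0.0524 to 0.144), Lip4 without high-sugar 4-week arrays 1 or 2 or high-sugar 2-day arrays 1 or 2 (0.0629 to 0.0947) and tobi without high-sugar 4-week arrays 2 or 3 or high-sugar 2-day arrays 1 or 3 or control 4-week array 3 or control 2-day arrays 1, 2 or 3 (0.0548 to 0.128). The number of lipase genes called lower became 5 without high-sugar 4-week array 1. Under other processing choices, calls lost at the adjusted p given were Jon25Biii (0.0613), Lip3 (0.0785) and tobi (0.0791) without a filter, Jon25Biii (0.0622) with robust estimation, tobi (0.495) with quantile normalization, tobi (0.0652) with arrays centred on their medians and tobi (0.146) without a trend.

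Called eye and nerve genes were all lower, and called neuropeptide genes were mostly higher. Of 17 photoreceptor genes 9 fell and 0 rose, with a median of -0.37. eys (-1.03, or -0.59 with the mean of all probe sets), ninaB (-0.93), which makes the visual pigment's retinal, the rhabdomere protein gene chp (-0.84) and Gbeta76C (-0.76), a G protein subunit of phototransduction, fell most; chp measured 1008, 903 and 923 at 4 weeks and 1619, 1981 and 1508 at 2 days. The corneal protein gene retinin (gene 53564) measured 367, 336 and 555 against 2565, 3463 and 4137 (-3.02, adjusted p 4.12e-06). Of 17 neuronal genes 6 fell and 0 rose: Gad1, which makes the transmitter GABA, measured 1137, 1033 and 1029 against 1668, 1904 and 1583 (-0.69), and Vmat (-0.58), VAChT (-0.49) and futsch (-0.49) followed. Neuropeptide precursor genes had 10 of 22 higher and 1 lower (median 0.37). Crz (gene 41742), corazonin, measured 157, 156 and 191 against 63.4, 70.4 and 55.4 (1.41, standard error 0.13, adjusted p 2.38e-05). Mip measured 309, 413 and 358 against 177, 159.5 and 164 (1.10), Dh31, a diuretic hormone, 475, 462 and 472 against 267, 218 and 252 (0.94), and Ms (0.84), myosuppressin, rose. The fall was that of Nplp3 (gene 59235), with 969, 694 and 612 against 3609, 4414 and 4550.4 (-2.49, adjusted p 5.56e-05). Of 8 clock genes Clk (0.62) and cwo (0.35) rose and per (-0.05), tim (-0.21), vri (0.21) and the rest did not pass. The share of clock genes that rose was not far from the 19.9% of all genes. The labels give no time of day. With 1 array left out the call was lost, at the adjusted p in parentheses, for Vmat without high-sugar 4-week array 3 or high-sugar 2-day array 3 (0.0997 to 0.117) and futsch without high-sugar 2-day array 2 (0.0605). The number of neuronal genes called lower became 3 without high-sugar 2-day array 2. Other processing choices ended the call (adjusted p in parentheses) of Vmat (0.054) without a filter and cwo (0.0645) with the mean of all probe sets.

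More cuticle and basement membrane genes fell than rose. Of 43 cuticle protein genes above the filter (105 on the array) 12 fell and 4 rose, against 22.7% and 19.9% of all genes. Cpr49Ae measured 714, 521 and 447 at 4 weeks and 1958, 3112 and 2806 at 2 days (-2.23), and Cpr97Eb (-1.66), Cpr62Bb (-1.34) and Cpr66Cb (-1.31) fell next. Cpr67Fb (gene 39225) went the other way, with 1311, 1669 and 1397 against 274, 185 and 366 (2.45, adjusted p 4.77e-05), as did Cpr66D, with 472, 555 and 322 against 119.6, 93.7 and 145 (1.90). Basement membrane genes had 5 lower and 1 higher of 10. The collagen IV chains Col4a1, with 860.4, 908 and 872 against 1508, 1537 and 1584 (-0.81, adjusted p 6.11e-05), and vkg, with 640.3, 621 and 647 against 1009, 979 and 1037 (-0.66), fell together. trol (-0.41) and SPARC (-0.33), a collagen-binding protein gene, fell, Ppn (0.34), for a papilin of the matrix, was the rise, and laminin genes LanA (0.27), LanB1 (-0.16) and LanB2 (0.26) did not pass. Leaving out a single array ended the call (adjusted p in parentheses) of Ppn without high-sugar 4-week arrays 1, 2 or 3 or high-sugar 2-day array 2 (0.0638 to 0.16). Other processing lost, at the adjusted p given, the calls of Ppn (0.0524) with quantile normalization and Ppn (0.0515) without a filter.

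Further cell machinery genes were described by list. Of 31 genes of the vacuolar proton pump 14 fell and 2 rose (median -0.10, and -0.21 to -0.03 over the alternatives). The largest fall was that of VhaM9.7-d, with 191, 185 and 176 against 349.7, 365 and 333 (-0.92), and VhaM9.7-c rose, with 1030.0, 936 and 938 against 499, 557 and 608 (0.81). Of 86 cytoplasmic ribosomal protein genes listed, only 34 had a probe set with 1 gene symbol. Of these 34 genes 10 were lower and 1 higher, against 22.7% and 19.9% of all genes, and their median was -0.05. The largest falls there were those of RpS28a (-0.74), RpL10Aa (-0.57), RpS19b (-0.55) and RpS10a (-0.42). With quantile normalization that median was 0.08. Mitochondrial ribosomal protein genes had 11 higher and 8 lower of 71, both under the shares of all genes, mRpL1 (0.51) and mRpL23 (-0.40) among them. Odorant-binding proteins had 4 higher and 5 lower of 34, both under the shares of all genes: Obp18a (0.65) rose, and Obp22a (-1.09) and Obp56i (-1.07) fell. Replication and cell cycle genes had 2 higher and 1 lower of 15, both under the shares of all genes. RnrL, for nucleotide synthesis, with 113, 124 and 125 against 67.6, 64.2 and 49.4 (1.01), and Mcm2 (0.45) rose, and CycB3 (-0.66) fell. Of 8 genes of the renal tubule Lkr (0.46) rose and the others did not pass, and of 5 dosage compensation genes mle (0.42) rose. These rises were under or near the 19.9% of all genes. The calls that depended on 1 array, with the adjusted p without it, were RpL10Aa without high-sugar 4-week arrays 2 or 3 or high-sugar 2-day arrays 1 or 2 (0.0535 to 0.0633), RpS19b without high-sugar 4-week array 1 or high-sugar 2-day arrays 1 or 2 (0.0525 to 0.0602), RpS10a without high-sugar 2-day array 1 (0.0724), Mcm2 without high-sugar 4-week arrays 1 or 3 or high-sugar 2-day arrays 2 or 3 (0.0576 to 0.139) and mle without high-sugar 4-week arrays 1 or 2 or high-sugar 2-day arrays 1 or 2 (0.0726 to 0.119). The number of cytoplasmic ribosomal protein genes called higher became 8 with quantile normalization. The number of cytoplasmic ribosomal protein genes called lower became 2 without high-sugar 2-day arrays 1 or 2, 3 without high-sugar 4-week arrays 1 or 2, 4 with quantile normalization or with arrays centred on their medians or without a trend, 5 without high-sugar 4-week array 3 and 6 with only the 6 arrays compared. The number of mitochondrial ribosomal protein genes called higher became 6 without high-sugar 2-day array 2 and 7 without high-sugar 2-day array 3. The number of mitochondrial ribosomal protein genes called lower became 3 without high-sugar 4-week arrays 1 or 3 or high-sugar 2-day array 2, 4 without high-sugar 2-day array 1 and 5 without high-sugar 4-week array 2 or high-sugar 2-day array 3 or with quantile normalization. The number of odorant-binding protein genes called higher became 1 without high-sugar 2-day array 1 and 2 without high-sugar 4-week arrays 1 or 2 or without a filter. Under other processing choices, calls lost at the adjusted p given were Mcm2 (0.0643) with only the 6 arrays compared.

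Of 7 fat body protein genes 3 rose and 2 fell, among them the gene with the largest fall of all called genes. fit (gene 42578), a secreted protein gene of the fat body that responds to feeding, measured 33, 45.5 and 52 at 4 weeks and 456, 687 and 749.8 at 2 days, 14.4-fold lower (-3.85, standard error 0.36, adjusted p 2.01e-05). The storage protein gene Lsp2 measured 5565, 3618 and 3050.5 against 7172, 8372 and 8931 (-1.04). Apoltp, a lipid transfer protein gene, measured 2707, 3166 and 2964 against 1968, 1587 and 1458 (0.83), and NLaz, a lipocalin gene of stress and sugar tolerance, 2239, 2028 and 2145 against 1328, 1330.3 and 1159.9 (0.75). The lipophorin gene apolpp (-0.02), among the brightest on the array, did not pass. The other genes of the largest rises were CG18557 (2.69), CG4757 (2.65), CG9733 (2.44), Nepl17 (2.38), a neprilysin-like gene, and Art7 (gene 37664), an arginine methyltransferase gene. Art7 measured 158, 147 and 281 against 35.1, 29.6 and 33.3 (2.52, adjusted p 2.86e-05). Other genes of the largest falls were CG7203, with 257, 213 and 186 against 1621, 2317 and 2374 (-3.26), CG18301 (-2.70), CG7214 (-2.68) and CG12374 (-2.68). The largest changes relative to their error were, among rises, Jhbp12, named for juvenile hormone binding, with 2973, 3196 and 3276 against 1518, 1607 and 1584 (2-fold higher, adjusted p 1.03e-05), CG11899 (1.09), CG11854 (1.87) and Ance-3 (1.28), of the angiotensin-converting enzyme family. CG15239 and CG7763 lay at or below the floor of 11.78 in all 2-day arrays. At 4 weeks they measured 42.6, 78.3 and 58.6 and 40.5, 40.4 and 55.4. Their means on the log2 scale were 4.93-fold and 3.81-fold above that floor, which are lower bounds of the mean change from 2 days. With a floor at the 30th percentile their log2 values were 1.53 and 1.16, in place of 2.30 and 1.93. Np lay at or below the floor in all 4-week arrays and in array 1 of 2 days, with 8.03, 78.3 and 93.1 at 2 days (adjusted p 0.0256), so no fold is given. Calls lost when a single array was left out, with the adjusted p then given, were Np without high-sugar 4-week arrays 1, 2 or 3 or high-sugar 2-day arrays 2 or 3 (0.0546 to 0.112). Other processing choices ended the call (adjusted p in parentheses) of Np (0.0657) without a filter and Np (0.051) with robust estimation.

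The same contrast was made on control diet, between the other 6 arrays. Both contrasts used the same estimate of spread for each gene, so their calls are not independent. On control diet 3449 genes passed (33.1%), 1488 higher (14.3%) and 1961 lower (18.8%). Of the genes called, 2610 passed in the same direction on both diets, 58.8% of those called on high sugar and 75.7% of those called on control diet. Across genes, which are not independent replicates, Pearson's r of the pair of log2 fold changes was 0.826. Among the falls named above, 4 that were also called on control diet were those of Scp1 (-3.60 there), SERCA (-1.63), fit (-3.43) and Acp76A (-2.69). On high sugar the medians were -0.57 for muscle, -0.41 for oxidative phosphorylation, -0.81 for seminal proteins, -0.50 for testis and sperm, 0.29 for the proteasome and -0.37 for photoreceptors. On control diet they were -0.74, -0.35, -0.78, -0.37, 0.18 and -0.71 in the same order.

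**Figure D4:**
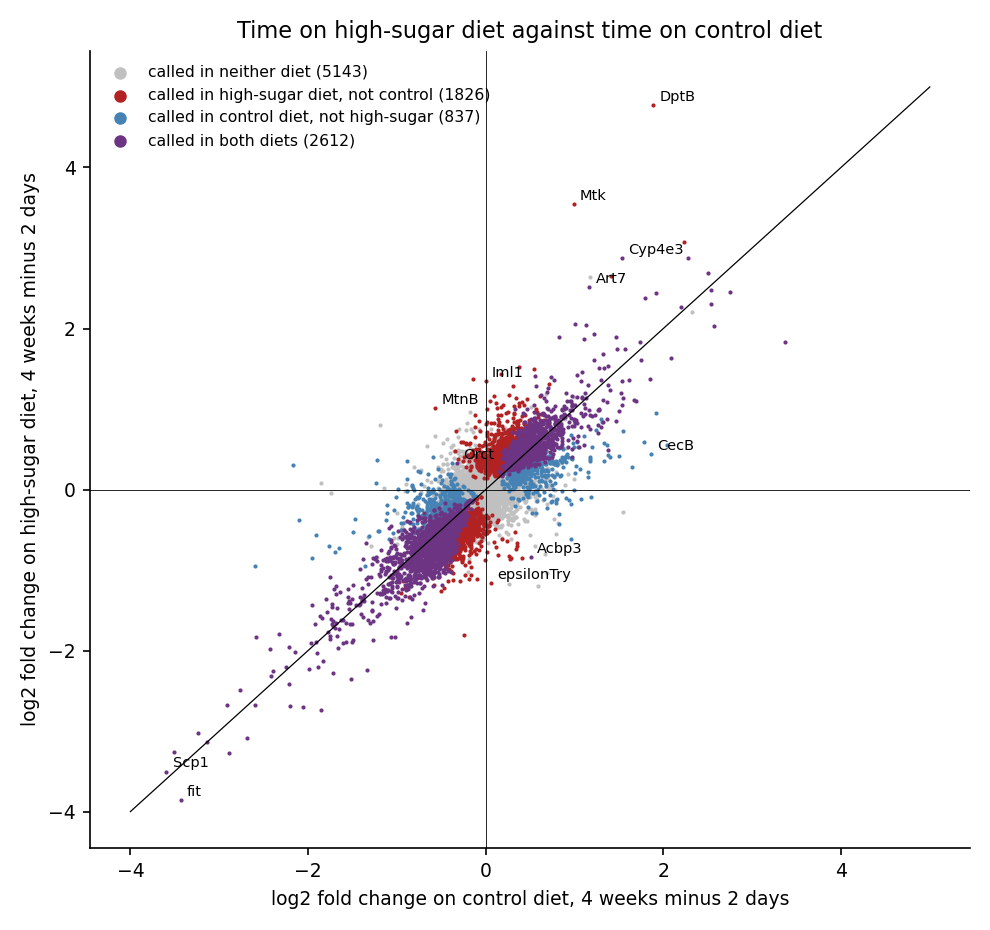
Each point is a gene, with its log2 fold change, 4 weeks minus 2 days, on high-sugar diet on the vertical axis and on control diet on the horizontal axis; the diagonal marks equal change. Purple points (2612) were called on both diets, all but 2 in the same direction; DptB (4.77 and 1.88) and Iml1 (1.35 and 0.00) lie above it.

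The difference itself, the change on high sugar minus the change on control diet, passed for 0 genes in limma (0.0%), and 757 had an unadjusted p under 0.05. A gene called on one diet and not on the other is therefore not shown to differ between them. The genes with the smallest p are named after their values were seen. Iml1 measured 894, 733 and 871 after 4 weeks and 307, 335 and 334 after 2 days on high sugar, and 288, 229 and 359.9 and 284, 285 and 291 at the same times on control diet. The 3 high-sugar arrays of 4 weeks stood above all 9 others, and the difference of the changes was 1.35 with a standard error of 0.20 (adjusted p 0.0962). Acbp3 (gene 38783), of the acyl-CoA binding protein family, measured 613, 765 and 738 after 4 weeks and 1479, 1024 and 1294 after 2 days on high sugar, and 2847, 2759 and 3504 and 2335, 2139 and 1927 on control diet. It fell on high sugar (-0.83) and rose on control diet (0.51), with a difference of -1.34 (adjusted p 0.0962). CG34026 (-1.13, adjusted p 0.324), epsilonTry (-1.22, adjusted p 0.324) and FASN3 (-0.60, adjusted p 0.405) had the next smallest p. epsilonTry measured 3059, 4868 and 4215 at 4 weeks and 3577, 4614 and 3362 at 2 days on control diet. daw had a difference of 0.89 (adjusted p 0.444), and Orct, an organic cation transporter gene, rose on high sugar (0.33) and fell on control diet (-0.32). With Acbp3 it was 1 of 2 genes called in opposite directions on the 2 diets. The high-sugar call of Orct was lost without high-sugar 4-week array 2 or 3 or high-sugar 2-day array 1 or 3 (adjusted p 0.0678 to 0.0989). The adjusted p of Iml1 was 0.0113 without control 4-week array 3 and 0.0446 without control 4-week array 2, and that of Acbp3 was 0.0466 without high-sugar 2-day array 2. Other genes called under a single alternative, also named after their values were seen, were CG10514 and CG11892 without control 4-week array 2, CG34316 without control 2-day array 2, and CG13362 with no filter.

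**Figure D5:**
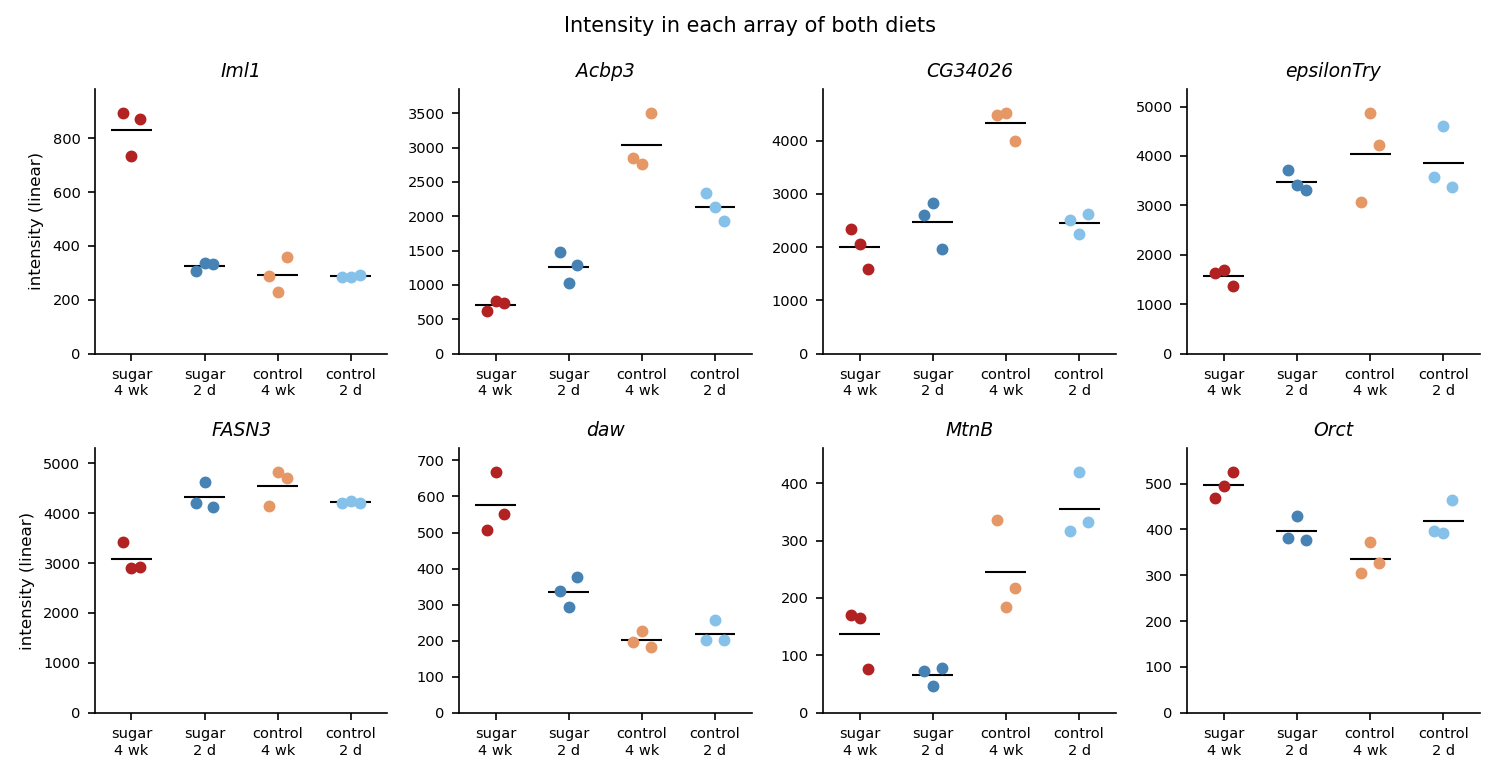
Points are the linear intensities of the 3 arrays of each group for 8 genes chosen after their values were seen, with high sugar (4 weeks, 2 days) left of control diet (4 weeks, 2 days), and black lines are group means; each panel has its own axis from 0. Iml1 is high in the 4-week high-sugar arrays alone, and Acbp3 is lower in high-sugar arrays, lowest at 4 weeks.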

How the data were processed

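Total RNA of whole male flies was labelled and hybridised to Affymetrix 3' expression arrays, 1 array per labelled biological replicate, 12 arrays in 4 groups of 3. The deposited table holds intensities on a linear scale, which the authors normalized and summarised per probe set with dChip from match and mismatch probes, per the labels and the series' text. Array medians ran from 86.97 to 93.42, and the genome build, scan dates and number of flies per replicate are not given in the sources used here. Of 18869 probe sets 13647 had 1 gene symbol in the platform annotation, 402 had several and 4720 had none; 100 were controls. Gene IDs are those of the annotation.

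Values under the pooled 20th percentile (intensity 11.78) were set to it, log2 was taken, the dimmest 30% by mean were left out (under log2 4.3), and each gene kept its probe set with the highest mean, which chose among several for 683 genes. limma 3.58.1 (R 4.3.3, eBayes with a trend) was fitted to 4 group means over all 12 arrays, with Benjamini-Hochberg adjustment over 10418 genes, 8 residual degrees of freedom and 5 from the prior. The adjusted p-values measure the spread between 3 arrays a group; an exact permutation test of 3 against 3 could not go below 0.1, so none was used for single genes. The fit was tested on simulated data with known changes. Python 3.11.15 and pandas 2.3.3 were used for tables and matplotlib 3.10.9 for plots.

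The comparison and the gene lists were chosen with earlier results of these data known. Some lists were corrected after their values were seen: Cp110, Cp190, Cyp1, Cyp40 and Mtmr6, which do not belong to the families whose names they resemble, were removed. Named genes were the 12 largest called rises and falls with separate groups, any member of a list of 15 or fewer tested genes, the 4 largest called rises and falls of a longer list, and the 5 largest moderated t in each direction. Alternatives were other normalization, floors, filters, variance models, array weights, probe set rules, a 1.5-fold threshold, a replicate block and leaving out each array. Close gene copies may share probes, which was not tested. Probe sets with no or several symbols were left out of the gene tests.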

Additional observations from a re-analysis of the deposited data

How the results depend on the processing

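The number of genes called on high sugar (4438, with 2068 higher and 2370 lower) ran over the normalizations, floors, filters, variance models, array weights, arrays fitted and probe set rules at 1883 to 2452 higher and 2116 to 2656 lower; with quantile normalization more were higher (2452) than lower (2289). With single arrays left out it was 3287 to 4627 in all, 1396 to 2186 higher and 1891 to 2441 lower, and on control diet 2144 to 3514, 809 to 1493 and 1322 to 2042. With at least 1.5-fold asked as well, 1934 genes were called on high sugar (591 higher, 1343 lower) and 1369 on control diet (486 higher, 883 lower), fewer by the construction of that threshold. The difference between the diets, 0 genes, came to 1 gene without a filter, which was higher (1), and to 0 to 3 genes, 0 to 3 higher and 0 to 1 lower, with single arrays left out. The same replicate number in different groups does not state a shared source, and the deviations of arrays with the same number correlated at -0.0401, -0.066 and -0.0555. With the replicate block the calls on high sugar were 4185 (1925 higher, 2260 lower), those on control diet 3165 (1339 and 1826), and those of the difference 0. For the 322 named called genes, the 1.5-fold threshold and the fit of every probe set were not counted. A filter that removed a gene was not counted as a loss. Of these genes 241 kept their call in every other alternative and 81 lost it in at least 1. Losses were most frequent when an array of the high-sugar groups was left out (32 to 59 genes, the highest without high-sugar 2-day array 2). The replicate block ended 11 of these calls, at the adjusted p given: Atg8a (0.0659), Cpr72Ec (0.0523), Cyp305a1 (0.0586), GNBP2 (0.0557), Oatp33Eb (0.0721), Obp56d (0.0564), PGRP-LA (0.0699), Ppn (0.0529), Prosalpha3T (0.059), bgcn (0.063) and tobi (0.0667). Quantile normalization turned the sign of Fer1HCH and Tsf1, not called in any other alternative, to 0.12 and 0.16; the cause was not tested. The median over all genes was 0.03, and 0.06 with quantile normalization. Precision was limited by 3 arrays a group and by low intensities, which the floor sets equal.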

Other observations

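Several gene families outside the lists of the report moved largely in 1 direction on high sugar. They were chosen from their values, by a shared start of their gene symbols, so the counts describe these arrays and carry no test. Genes of the CCT complex, the cytosolic chaperonin that folds actin and tubulin, rose throughout: 8 of 8 tested rose and 0 fell, with log2 fold changes of 0.49 to 0.88 and a median of 0.72, against 0.45 on control diet. Among Zip zinc importers 5 of 8 tested rose and 0 fell (median 0.48, and 0.41 on control diet), and among Oatp organic anion transporters 5 of 8 tested rose and 0 fell (median 0.39, and 0.27 on control diet). Genes of the Integrator complex, which processes small nuclear RNA, gave 6 rises of 11 (median 0.41), Prp splicing factor genes 6 of 11 (median 0.36), and Alg genes, whose enzymes build the sugar chain for protein glycosylation, 5 of 10 (median 0.30). No member of these 3 families was called lower.

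Families that were lower included TTLL genes, for enzymes that add amino acids to tubulin: 0 of 10 tested rose and 6 fell, with a median of -0.62 on high sugar and -0.33 on control diet. Among SmydA genes 0 of 8 tested rose and 6 fell, with medians of -0.65 and -0.63 on the same diets. Among Tim genes of the mitochondrial import machinery 1 of 8 tested rose and 5 fell (median -0.48 on high sugar and -0.30 on control diet).

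Probe sets that name no gene, or several, are outside the gene counts of the report. Of 1436 probe sets without a gene symbol that passed the filter, 262 were higher and 164 lower at 4 weeks (29.7% called). Of 11352 with 1 symbol, 2171 were higher and 2507 lower (41.2% called). Of 350 with several symbols, 50 were higher and 107 lower (44.9% called). The difference between these kinds of probe set was not tested.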
